A study of Mus musculus with 10 samples.

Results

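The salt-inducible kinases Sik1, Sik2 and Sik3 were described in cerebral cortex of female mice, WT or Crtc1-/-. The members are all probe sets whose annotation names only one of these kinases, which gave 9 of the 45037 probe sets tested and 3 of 18193 genes. Sik1 was read by 2 probe sets, Sik2 by 3 and Sik3 by 4. Cortical RNA of 5 WT and 5 Crtc1-/- littermates, labelled as adult C57BL/6N animals of 2 months with no treatment, was hybridized to 10 GeneChip arrays, 1 for each mouse. The Crtc1-/- mice, called Crtc1KO in the labels, lack the CREB coactivator CRTC1. No source used here limits the loss to a cell type or an age, so effects of its loss in cortex and elsewhere cannot be told apart. The methods state that mice of both genotypes were housed alone for some weeks before they were killed.

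SIKs are serine/threonine kinases of the AMPK family that the tumor suppressor kinase LKB1 switches on. They phosphorylate CRTC coactivators, which then bind 14-3-3 proteins and stay in the cytoplasm. When cAMP rises, PKA phosphorylates the SIKs and blocks their action, and when calcium rises, calcineurin removes phosphate from the CRTCs. The CRTCs then enter the nucleus to act with CREB. Sik1 is itself a cAMP-inducible gene and works as a brake on this pathway, SIK2 is a CRTC kinase of neurons and fat cells, and SIK3 is known for its part in sleep need and in skeletal growth.

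The RefSeq promoter windows of the Sik genes were searched for cAMP response elements, the sites that CREB binds. Of the 3 members, 2 had a window in the set used, Sik2 and Sik3. The windows run from 250 bases before the transcription start to 50 bases after it in GRCm38.p6. The start and the first 30 bases after it are printed here with everything upstream, 5′ to 3′ on the strand of the gene, and capitals mark each short CRE motif TGACG or, on the other strand, CGTCA.
Sik2 (chr9:51009044-51009323, minus strand): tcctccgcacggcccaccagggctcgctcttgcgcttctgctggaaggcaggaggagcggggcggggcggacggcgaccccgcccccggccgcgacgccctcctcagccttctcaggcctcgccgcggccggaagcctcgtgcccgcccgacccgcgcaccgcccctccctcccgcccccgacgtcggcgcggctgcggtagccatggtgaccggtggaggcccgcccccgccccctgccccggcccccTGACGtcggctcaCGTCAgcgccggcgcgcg
Sik3 (chr9:46012570-46012849, plus strand): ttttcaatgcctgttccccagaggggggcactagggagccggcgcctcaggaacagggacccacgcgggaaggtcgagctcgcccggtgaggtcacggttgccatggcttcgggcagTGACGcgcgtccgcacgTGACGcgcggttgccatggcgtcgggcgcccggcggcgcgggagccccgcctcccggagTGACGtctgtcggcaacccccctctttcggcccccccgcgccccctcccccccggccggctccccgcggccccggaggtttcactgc
The Sik2 window held 2 short motifs, which begin 1 base before and 13 bases into the transcript. The Sik3 window held 3, which begin 133, 116 and 57 bases before the start. Of 32851 promoter windows of the same length, 20.8% held at least 1 short motif, 5.01% at least 2 and 1.03% at least 3. Neither Sik window held the full palindrome TGACGTCA, which contains both short motifs and was found in 1.79% of all windows. Both windows are rich in G and C (80.0% for Sik2 and 73.7% for Sik3, against a median of 52.7%), and no correction for this was made. These are matches of letters, not measured binding. No window of Sik1 was in the set used, so Sik1 was not searched.

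Crtc1 itself was checked first. At its brightest probe set, 1434476_at, WT mice had log2 values of 9.51 to 9.86 and Crtc1-/- mice of 5.96 to 6.60, so the arrays match their labels. Values of any pair of arrays correlated over all probe sets with r between 0.994 and 0.998. The array medians differed by at most 0.03. No array stood apart in any of the 22 groups tested with Dixon's ratio, which were not those of the members alone. The cortical markers of the labelled tissue were bright, with all 8 measured genes of excitatory cortical neurons and all 7 of interneurons above the median gene. A total of 84 probe sets were lower and 52 higher in Crtc1-/- mice at an adjusted p of 0.05 (limma, Benjamini-Hochberg correction over all probe sets).

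Of the 9 Sik probe sets, 4 were lower in Crtc1-/- cortex and none was higher, where 0.187% of all probe sets tested were called lower. The 4 are the brightest probe set of Sik2 and the 3 brightest of Sik3. In 6 of the 9, every Crtc1-/- mouse lay below every WT mouse, which was so in 1.37% of all probe sets. These 6 include Sik1, which did not pass the correction. The other 3 probe sets, 1 of each gene, were the dimmest of their gene and overlapped between the genotypes.

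**Figure D1:**
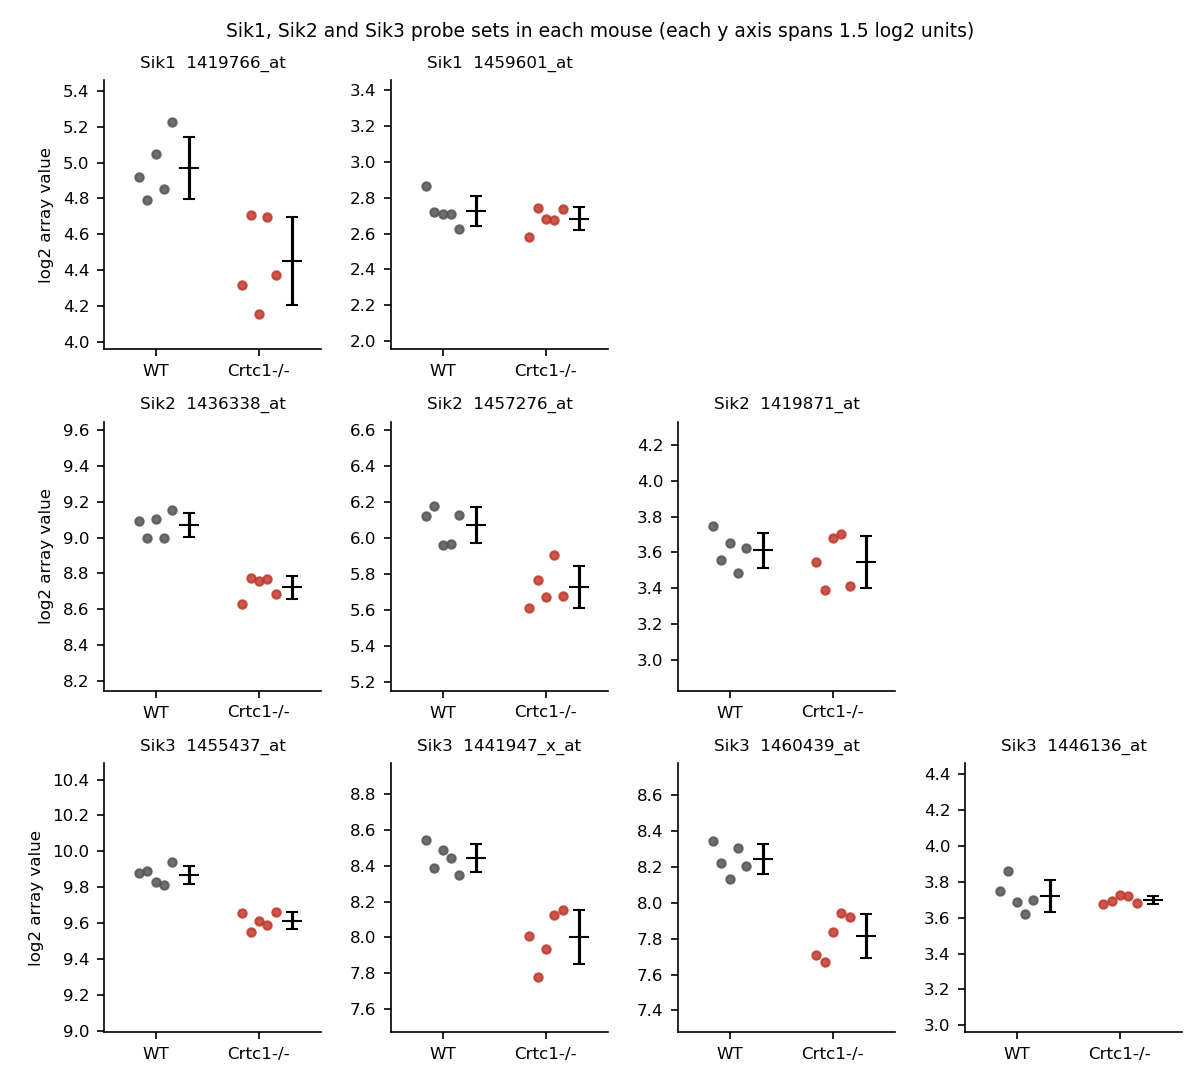
Log2 array values (y axis) of the 9 Sik probe sets in WT and Crtc1-/- mice, 1 row of panels per gene, where points are mice and bars give the mean ± SD of a genotype (n = 5); each y axis spans the same length and does not start at 0. In the first panel of each row the Crtc1-/- points are all under the WT points, whereas in the last panel of each row the groups overlap.

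Sik2 was lower in Crtc1-/- cortex. Its probe set 1436338_at read 9.09, 8.998, 9.10, 9.0003 and 9.15 on the log2 scale in WT replicates 1 to 5. In Crtc1-/- replicates 1 to 5 it read 8.63, 8.77, 8.76, 8.77 and 8.68. The highest Crtc1-/- mouse lay 0.23 under the lowest WT mouse, and the group means were 9.07 ± 0.07 and 8.72 ± 0.06 (SD, n = 5 per genotype). The log2 fold change was −0.35 (standard error 0.05), so that Crtc1-/- mice had 78.7% of the WT level (95% confidence interval 72.9% to 84.9%). With limma, this passed over all probe sets (adjusted p = 0.0141) and over genes (adjusted p = 0.00447), and the probe set ranked 61 of 45037 by p.

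A second Sik2 probe set gave a difference of the same size in a dimmer signal. In 1457276_at the WT mice read from 5.96 to 6.18 and the Crtc1-/- mice from 5.61 to 5.91, with a gap of 0.06 between the groups. The log2 fold change was −0.35 (standard error 0.07) and did not pass the correction (adjusted p = 0.0739 from limma). The difference between the log2 fold changes of these probe sets was 0.000297, with a 95% confidence interval from −0.15 to 0.15 (exact permutation test, two-sided, p = 0.992). The third Sik2 probe set 1419871_at was dim, as its mean exceeded that of 22.8% of all probe sets. Its log2 fold change was −0.07 (standard error 0.07, adjusted p = 0.925 from limma), and it read from 3.48 to 3.75 in WT mice and from 3.39 to 3.70 in Crtc1-/- mice.

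Sik3 was lower in 3 of its 4 probe sets. The brightest, 1455437_at, read 9.88, 9.89, 9.83, 9.81 and 9.94 in WT replicates 1 to 5. It read 9.66, 9.55, 9.61, 9.59 and 9.66 in Crtc1-/- replicates 1 to 5. All Crtc1-/- mice lay at least 0.15 under the lowest WT mouse. The group means were 9.87 ± 0.05 and 9.61 ± 0.05 (SD, n = 5 per genotype), −0.25 on the log2 scale (standard error 0.04), which is 83.8% of the WT level (95% confidence interval 78.3% to 89.7%). With limma, this passed over all probe sets (adjusted p = 0.0424) and over genes (adjusted p = 0.0140).

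The next probe sets of Sik3 showed larger differences. In 1441947_x_at the WT mice read 8.54, 8.39, 8.49, 8.44 and 8.35 and the Crtc1-/- mice 8.01, 7.78, 7.94, 8.12 and 8.16. This is 73.7% of the WT level (95% confidence interval 66.0% to 82.2%, adjusted p = 0.0295 from limma). The ending of its name means that some of its probes can bind other transcripts, and their share of the signal was not tested. In 1460439_at, which has no such ending, the WT mice read 8.34, 8.22, 8.13, 8.30 and 8.20 and the Crtc1-/- mice 7.71, 7.67, 7.84, 7.94 and 7.92. It stood at 74.5% of the WT level (95% confidence interval 67.4% to 82.3%, adjusted p = 0.0216 from limma). Both groups were thus apart in both probe sets, by 0.19 on the log2 scale in each.
The log2 fold change of 1441947_x_at was lower than that of 1455437_at by 0.19 and that of 1460439_at by 0.17, differences that did not pass after adjustment over the 6 pairs of probe sets compared within genes (exact permutation test, two-sided, p = 0.0397 and 0.0556, adjusted p = 0.0595 and 0.0667). Their 95% confidence intervals, taken from a t distribution and not from the exact test, ran from −0.36 to −0.01 and from −0.33 to −0.01. The fourth Sik3 probe set 1446136_at, whose mean exceeded 25.9% of all probe sets, read from 3.62 to 3.86 in WT mice and from 3.68 to 3.72 in Crtc1-/- mice. Its log2 fold change was −0.02 (standard error 0.05, adjusted p = 0.967 from limma). Where each Sik probe set lies in the transcripts of its gene is not given in the sources used here, and no detection calls were used to set dim values against background.

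Sik1 was lower in each Crtc1-/- mouse than in any WT mouse at its brighter probe set and did not pass the test. Its probe set 1419766_at, whose mean exceeded 42.8% of all probe sets, read 4.92, 4.79, 5.05, 4.85 and 5.22 in WT replicates 1 to 5. It read 4.32, 4.71, 4.15, 4.70 and 4.38 in Crtc1-/- replicates 1 to 5. The groups did not overlap, but they came within 0.09 of each other, as Crtc1-/- replicates 2 and 4 lay just under the lowest WT mouse. The SD of the Crtc1-/- mice was the widest of the 9 probe sets. The means were 4.97 ± 0.17 and 4.45 ± 0.24 (SD, n = 5 per genotype), −0.52 on the log2 scale (standard error 0.12) and 69.8% of the WT level with a 95% confidence interval from 58.5% to 83.3%. With limma, the adjusted p was 0.143 among all probe sets and 0.0760 among genes. The other Sik1 probe set 1459601_at was brighter than 1.51% of all probe sets, read between 2.58 and 2.86 in all mice and differed by −0.04 (adjusted p = 0.938 from limma). When all probe sets of each gene were averaged, dim ones included, Sik1 was at −0.28 (adjusted p = 0.0984 over genes from limma), Sik2 at −0.25 (adjusted p = 0.0482) and Sik3 at −0.29 (adjusted p = 0.0116).

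**Figure D2:**
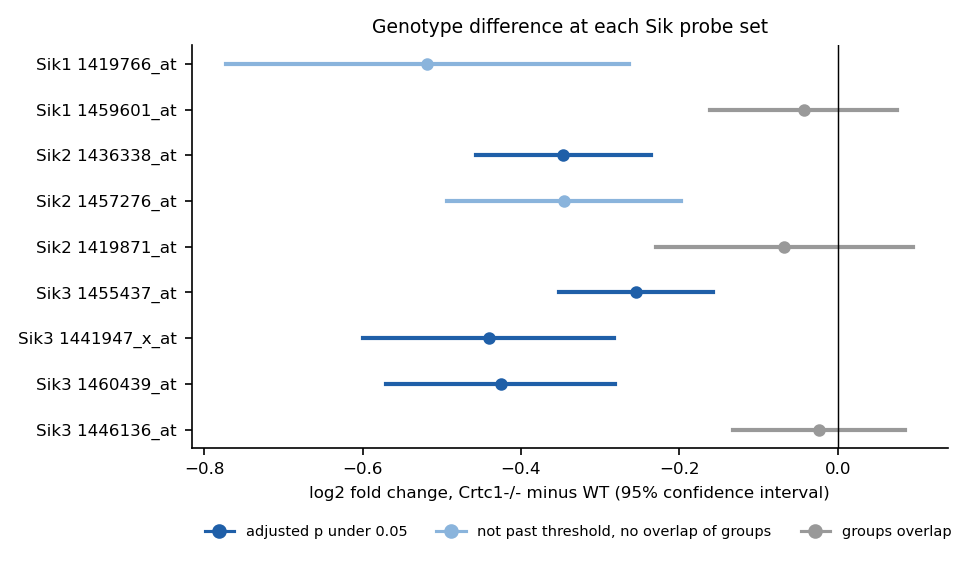
Log2 fold change of each Sik probe set, Crtc1-/- minus WT, with its 95% confidence interval from limma (x axis); dark blue marks probe sets past an adjusted p of 0.05, light blue those not past it whose groups do not overlap, and grey those whose groups overlap. The 4 dark blue points lie between −0.25 and −0.44, and the light blue point of Sik1 at −0.52 has the widest interval.

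The dimmest probe set of each gene differed from the brightest by 0.48 for Sik1, 0.28 for Sik2 and 0.23 for Sik3 in log2 fold change (exact permutation test, two-sided, adjusted p = 0.0238, 0.0317 and 0.0238 over the 6 pairs). As the dim ones were not shown to lie above background, nothing is read from these differences. For each of the 6 probe sets without overlap, the exact permutation test could only give p = 0.00794 (two-sided, n = 5 per genotype). This is the smallest value that 5 mice against 5 allow, and groups that do not overlap always reach it. It thus adds nothing to the lack of overlap. For the dim ones, the exact permutation test gave p = 0.397, 0.405 and 0.651 (two-sided, n = 5 per genotype). The changes of Sik1, Sik2 and Sik3 were then set against each other at the brightest probe set of each gene, a comparison added after the values were seen. None of the 3 differences passed (exact permutation test, two-sided, p from 0.0952 to 0.159, adjusted p = 0.159 in each). The log2 fold change of Sik3 was higher (less negative) than that of Sik2 by 0.09, with a 95% confidence interval from −0.03 to 0.22. It was higher than that of Sik1 by 0.26, with an interval from −0.06 to 0.59, so these data do not rank the 3 kinases. Mice that were low in 1 kinase were not always low in the others. Among Crtc1-/- mice, replicate 2 was the highest for Sik1 (4.71) and for Sik2 at 1436338_at (8.773, beside 8.771 in replicate 4). It was the lowest in all 3 brighter Sik3 probe sets (9.55, 7.78 and 7.67). At Sik2 1457276_at, replicate 4 was the highest (5.91, beside 5.77 in replicate 2). With the mean of each genotype taken off, the brightest probe sets gave r = 0.652 for Sik1 with Sik2. For Sik3, r was −0.159 with Sik1 and −0.111 with Sik2.

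The decrease of Sik2 at 1436338_at kept its call with any of the 10 arrays left out (adjusted p from 0.0278 to 0.0488 from limma). That of Sik3 at 1455437_at was lost with each of the 10 left out in turn (adjusted p from 0.0688 to 0.129), while its log2 fold change ran from −0.27 to −0.24. The count of 4 called Sik probe sets became 1 when WT replicate 1, 2 or 4 or Crtc1-/- replicate 1 or 3 was left out, and 2 without WT replicate 3 or Crtc1-/- replicate 2.

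**Figure D3:**
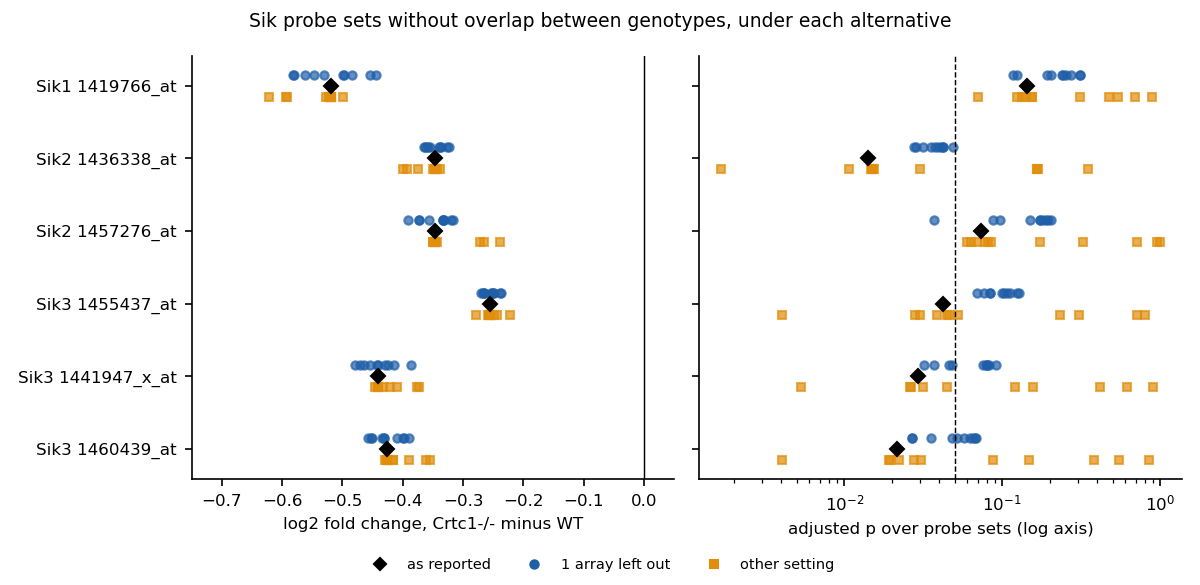
Log2 fold change (left) and adjusted p over probe sets on a log axis (right) of the 6 Sik probe sets without overlap, as reported (black diamonds), with each array left out in turn (blue) and under the other settings (orange); the dashed line is an adjusted p of 0.05. All log2 fold changes stay below 0, from −0.62 to −0.22, and the adjusted p of Sik2 1436338_at stays under the line with any array left out.

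Markers of other cells were read in the same arrays, and 1 of them, in the hippocampal list, passed the test. The 11 oligodendrocyte markers that were measured all lay above 0 on the log2 fold change scale without a call, and their mean level on the log2 scale ran from 9.42 to 9.78 in WT mice and from 9.72 to 9.99 in Crtc1-/- mice. Of 11 hippocampal markers, 8 had a log2 fold change below 0 and 1, Fibcd1, passed (−0.41), and their mean level ran from 5.98 to 6.23 in WT mice and from 5.92 to 6.05 in Crtc1-/- mice. Of the 11 hippocampal markers, 5 were brighter than the median gene, beside 10 of the 11 oligodendrocyte markers. Every marker list had a value in each mouse, as the deposited values hold no 0. Of 8 excitatory neuron markers 6 lay below 0, from −0.19 for Neurod6, the 1 member whose groups did not overlap, to 0.20 for Rorb, and the mean of the list was 9.42 ± 0.06 in WT and 9.39 ± 0.02 in Crtc1-/- mice (SD, n = 5 per genotype). Of 7 interneuron markers 6 lay below 0 (9.72 ± 0.05 and 9.70 ± 0.04). Of 9 astrocyte markers 7 lay above 0 (9.94 ± 0.06 and 10.01 ± 0.05), as did 6 of 8 markers of endothelium and mural cells (7.78 ± 0.14 and 7.86 ± 0.07) and 5 of 8 of microglia (8.25 ± 0.17 and 8.24 ± 0.12). Groups also did not overlap for the astrocyte marker Gfap (0.22) and the hippocampal markers Fibcd1 and Nr3c2 (−0.15 for Nr3c2). Neither Gfap nor Nr3c2 was called. In such tissue, fewer cells that express a SIK and less SIK RNA per cell cannot be told apart. With the oligodendrocyte mean as a covariate the log2 fold change of Sik2 was −0.39 (adjusted p = 0.165 from limma) and that of Sik3 was −0.22 (adjusted p = 0.711). With the hippocampal mean as a covariate they were −0.37 (adjusted p = 0.166) and −0.28 (adjusted p = 0.305), so none of the Sik calls was kept with either covariate while the differences were of about the same size.

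The other genes of the SIK pathway were given by 5 lists with 43 measured genes, of which 1 fell and 1 rose, where 0.764% of all genes were called in either direction. The gene that fell is Crtc1, the gene that was removed. The median log2 fold change of the 43 was −0.01, beside −0.003 for all genes.
The list of 13 activators and upstream kinases also holds subunits of PKA, which blocks the SIKs. In this list Camk4, a calcium-dependent kinase of CREB that can also phosphorylate SIK2, rose. It read from 10.88 to 11.14 in the WT group and from 11.25 to 11.45 in the Crtc1-/- group, a difference of 0.32 on the log2 scale (standard error 0.06, adjusted p = 0.0266 over genes and 0.0611 over probe sets from limma), and its call over genes was lost in 14 of 23 alternatives. With the hippocampal covariate the difference was 0.20 (adjusted p = 0.340), as it was with both covariates (adjusted p = 0.629). The dimmer probe sets of Camk4 lay at 0.31, 0.35, 0.43 and 0.03, with overlapping groups and without a call over probe sets. Stk11, which encodes LKB1, was at −0.10 on the log2 fold change scale (adjusted p = 0.5), and Prkar1b, a regulatory subunit of PKA, at 0.07 (adjusted p = 0.599).
None of the other lists had a call apart from Crtc1. Of the 7 CRTC and class IIa HDAC substrates, the coactivator gene Crtc3 was at 0.05 (adjusted p = 0.812) and the histone deacetylase gene Hdac4 at −0.13 (adjusted p = 0.642). Of the 7 14-3-3 proteins, 6 had a log2 fold change below 0, the lowest p being that of Ywhaz (−0.08, adjusted p = 0.453), followed by Sfn (−0.13, adjusted p = 0.562). Of 5 calcineurin subunits, Ppp3ca, a catalytic subunit, was at 0.12 (adjusted p = 0.213 from limma), and Ppp3r1, a regulatory subunit, at 0.05 (adjusted p = 0.720). The 11 other kinases of the AMPK family that LKB1 activates lay between −0.10 and 0.03. Of these, Mark2, a kinase of microtubule-associated proteins, was at −0.10 (adjusted p = 0.486) and Brsk1, a kinase of neuronal polarity, at −0.10 (adjusted p = 0.611).

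**Figure D4:**
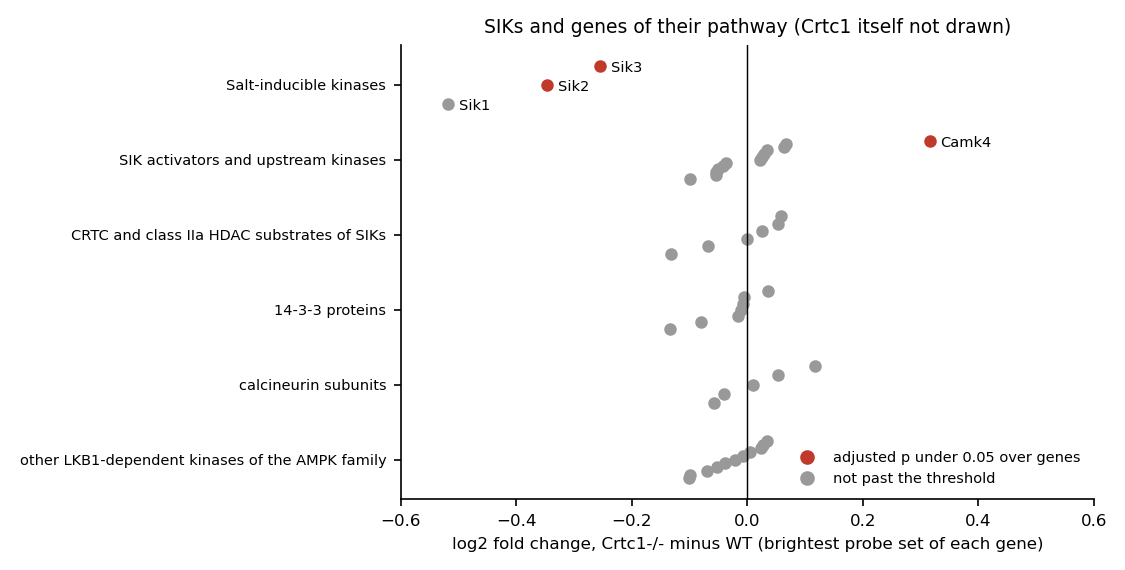
Difference of Crtc1-/- from WT as log2 fold change (x axis) for the 3 SIK genes and the genes of the 5 pathway lists (rows), each at its brightest probe set, with red for an adjusted p under 0.05 over genes and grey otherwise; Crtc1, at −3.32, is not drawn. Sik2 (−0.35), Sik3 (−0.25) and Camk4 (0.32) are red, and all grey points but Sik1 lie between −0.13 and 0.12.

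Sik2 and Sik3 lie on chromosome 9 with 43 measured genes between them in the gene order of GRCm38.p6, and none of those 43 passed. Sik1 lies on chromosome 17. Of the 10 measured genes on each side of each kinase, none passed the test over genes. The median log2 fold change of these neighbors was −0.02 for Sik1, 0.04 for Sik2 and 0.00394 for Sik3. Ppp2r1b, a subunit of protein phosphatase 2A whose annotated range overlaps that of Sik2, was at −0.15 (standard error 0.05, adjusted p = 0.298 over genes from limma). The neighbors farthest from 0 were Nxpe4 (0.46) and Tagln (0.38), both near Sik3 and both without passing (adjusted p = 0.300 and 0.257). These 3 neighbors were named after their values were seen.

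**Figure D5:**
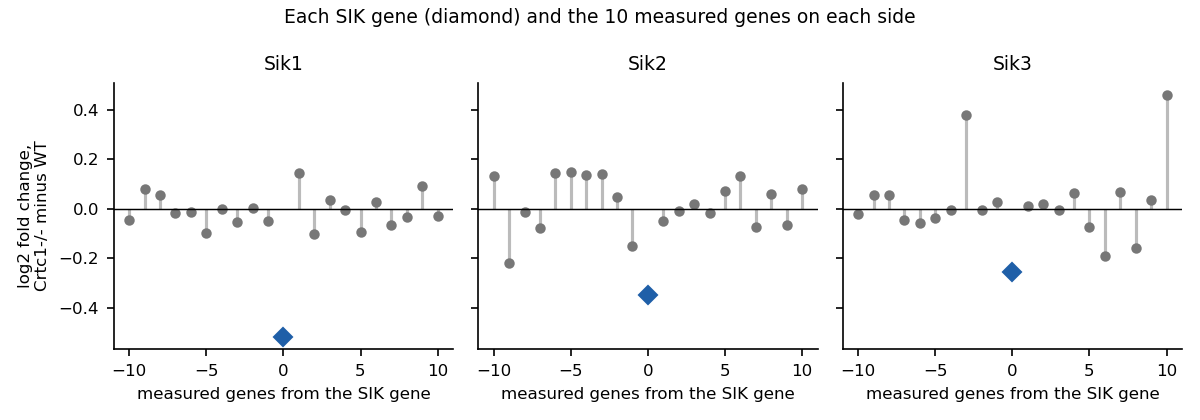
Log2 fold change, Crtc1-/- minus WT (y axis), of each SIK gene (blue diamond) and of the 10 measured genes on each side of it (grey), by their order along the chromosome (x axis, in genes). The diamonds lie at −0.52, −0.35 and −0.25, each below all 20 of its neighbors.

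The genes whose values over the 10 arrays were most like those of each kinase were named by Pearson's r, as a description, among 9096 genes brighter than the median gene. For Sik1 they were Dusp1, an inducible phosphatase of MAP kinases (r = 0.970, Spearman's rho = 0.976), Myo1e, a class I myosin (r = 0.953), and Kctd1, a transcriptional regulator (r = 0.941). For Sik2 they were Scg2, a granin of secretory granules (r = 0.957, rho = 0.794), the imprinted gene Zdbf2 (r = 0.955) and the orphan nuclear receptor Nr4a3 (r = 0.947). For Sik3 they were Zdbf2 (r = 0.975, rho = 0.952), Scg2 (r = 0.963) and Ntrk2, the receptor of BDNF (r = 0.963). A genotype difference that genes share adds to such an r. So does the choice of the highest r among so many genes on 10 arrays, which also raises the r of deviations given next. After the mean of each genotype was taken off, r was 0.914 for Sik1 with Dusp1, 0.865 with Myo1e and 0.818 with Kctd1. For Sik2 it was 0.455 with Scg2, 0.425 with Zdbf2 and 0.643 with Nr4a3, and for Sik3 0.747 with Zdbf2, 0.561 with Scg2 and 0.561 with Ntrk2. Of these genes Dusp1 (log2 fold change −0.41, adjusted p = 0.0401 over genes from limma), Scg2 (−0.41, adjusted p = 5.70e-04), Zdbf2 (−0.91, adjusted p = 1.45e-05), Nr4a3 (−0.94, adjusted p = 0.00485) and Ntrk2 (−0.30, adjusted p = 0.00300) were called lower. Myo1e (−0.27, adjusted p = 0.119) and Kctd1 (−0.18, adjusted p = 0.135) did not pass.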

How the data were processed

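Expression was read on Affymetrix Mouse Genome arrays, which measure transcripts mostly near their 3′ end, with 300 ng of cortical RNA per mouse as input to the IVT labelling kit. The authors checked array quality with the RACE package and deposited a log2 value for every probe set of every array. Background correction, normalization and summarization are not given in the sources used here. The deposited log2 values were used unchanged and lay between 2.14 and 13.90. Each log2 value sums up several probes. A probe set that lies away from the 3′ end of a transcript can thus understate a difference. One that binds other transcripts can understate or overstate it.

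The tables hold 45101 probe sets, of which 64 are controls and were dropped. The other 45037 were fitted with limma (lmFit and eBayes, version 3.58.1, R 4.3.3) as Crtc1-/- minus WT. P-values were adjusted by Benjamini and Hochberg's method and called at 0.05. The annotation names 1 gene for 34945 probe sets, several for 932 and none for 9160. Each of 18193 genes was represented by its brightest probe set, and 18032 matched the gene table of GRCm38.p6. Single differences within arrays were tested with an exact permutation test over mice. The number of arrays limits the precision, and the methods say that mice of the study came in several batches, which the labels do not assign, so no batch could be fitted.

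The members, the pathway and marker lists and the tests were chosen with earlier results of these data known. Named were Crtc1, all Sik probe sets, pathway genes that passed with up to 2 more per list by smallest p, and the 3 genes most like each kinase. Alternatives were quantile normalization, median centring, filters on dim and on _s_at and _x_at probe sets, other variance settings, array weights, a replicate block, marker means as covariates, means over probe sets, and each array left out. Whether replicate numbers pair mice is not stated in the labels. Of 5 same-numbered pairs, 0 had a correlation of deviations over 0.1, which cannot show whether they shared a litter or batch.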

Additional observations from a re-analysis of the deposited data

How the results depend on the processing

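The log2 fold changes of the 6 Sik probe sets without overlap were below 0 under every alternative run, no Sik probe set was called higher and no gene beside a member was called. The count of Sik probe sets called lower, 4 as reported, was 2 with no moderation of the variance, 0 with the oligodendrocyte covariate, 0 with the hippocampal covariate, 0 with both together (added after seeing the data) and from 1 to 4 with an array left out. The count over all probe sets, 84 as reported, was 154 with a trended and robust prior, 50 with no moderation, 13, 18 and 11 with the oligodendrocyte, hippocampal and both covariates, and from 45 to 77 with an array left out. With the replicate number as a block these counts were 0 and 28, and 1 pathway gene was called. Sik2 was then at −0.35 (adjusted p = 0.168 from limma) and Sik3 at −0.25 (adjusted p = 0.232). Whether these numbers pair the mice is not known.

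Sik2 at 1436338_at was −0.39, −0.37 and −0.40 with the oligodendrocyte, hippocampal and both covariates, with an adjusted p of 0.165, 0.166 and 0.349 from limma, and, the block aside, kept its call under the other alternatives. Sik3 at 1455437_at was −0.26 after median centring (adjusted p = 0.0525), −0.22, −0.28 and −0.24 with these covariates, and from −0.27 to −0.24 with an array left out. The calls of Sik3 at 1441947_x_at and 1460439_at were each lost in 11 alternatives, 6 of them with an array left out. Sik1 at 1419766_at passed in 0 of 22 alternatives and, being dim, had no value in the mean of brighter probe sets, and Sik2 at 1457276_at in 1, without Crtc1-/- replicate 4 (adjusted p = 0.0371). The 2 pathway genes called became 3 with the trended and robust prior, 1 with each covariate, with both and with the mean of all or of the brighter probe sets of a gene (the last added after seeing the data), and 1 to 2 with an array left out. Dim probe sets changed sign: Sik1 1459601_at was 0.022 with the oligodendrocyte covariate and 0.025 with both, and Sik3 1446136_at was 0.049, 0.041 and 0.072 with the oligodendrocyte, hippocampal and both covariates and from −0.049 to 0.010 with an array left out, above 0 without WT replicate 2. The cause of these changes was not tested.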
